A study of Rattus norvegicus with 24 samples.

Results

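The nucleus accumbens core (NAc core) was compared with the ventral tegmental area (VTA) in the same 8 male rats, using 16 of the 24 RNA-seq libraries of the self-administration experiment. Members were chosen by the region that the labels give, 8 libraries from NAc core and 8 from VTA, and each rat supplied 1 of each, so that the libraries were paired by rat number. All rats were F1 males of reciprocal crosses between the inbred Fischer (F344) and Brown Norway (BN) strains. Subgroup A (rats 1, 2, 11 and 15) was sired by F344 males on BN females, and subgroup B (rats 3, 4, 13 and 16) by BN males on F344 females. The paper reports an inclination to self-administer nicotine in subgroup A and not in subgroup B. Subgroup and this behaviour therefore cannot be told apart here. On days 1 to 4, rats 1, 2, 3 and 4 were injected with nicotine at 0.4 mg/kg and rats 11, 13, 15 and 16 with saline. Per the labels and the study's methods, all 8 rats were later given nicotine by vein, 30 µg/kg in each infusion and 10 infusions in each of 6 daily sessions, part of them self-administered, and tissue was taken on day 15. The injections are in the labels, and the study's methods do not mention them for these rats. No rat without nicotine was among these libraries, so every value below was measured after nicotine. Regions were dissected by hand.

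The VTA is a midbrain region whose dopamine neurons send axons to the nucleus accumbens, and it also holds GABA and glutamate neurons and many glia. The accumbens is the ventral part of the striatum, and most of its neurons are GABAergic medium spiny neurons that receive this dopamine. Since the cell bodies of VTA neurons lie in the midbrain, their messenger RNAs are found mainly there and not where their axons end. In bulk tissue fewer cells of a type and less RNA per cell cannot be told apart, and a regional difference is a difference between whole mixtures of cells.

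Genes in the deposited table carry Ensembl IDs and no symbols. The reference table used here matched 0 of the 17323 IDs. Genes are therefore described by their measurements, with 2 IDs in each direction as examples, and the regional labels were not checked against marker genes of dopamine neurons, medium spiny neurons and glia, since names were taken from these tables alone. No sequence or genome position is given for the same reason.

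Depth was similar but not equal. Total counts ranged from 17563458 to 20480697 in NAc core and from 17856705 to 24405856 in VTA. The VTA library was the deeper one in 7 of 8 rats (mean difference -2225890 counts for NAc core minus VTA, two-sided exact permutation test over rats, p = 0.0234, adjusted p = 0.0313 over 4 library measures, smallest possible p = 0.00781). In a principal component analysis of the 500 genes with the largest variance, NAc core libraries scored 32.1 to 39.4 on the first component (60.7% of variance). The score was -8.15 for the VTA library of rat 2 and -45.1 to -36.1 for the remaining 7. On the second component the VTA libraries of rats 2 and 1, the nicotine-injected rats of subgroup A, scored -44.4 and -17.3 and the other 6 scored 3.52 to 11.5. Whether the VTA library of rat 2 holds material of another region was not tested, and its values are those of the library labelled VTA. The main counts are given with and without this library.

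NAc core and VTA differed at a large share of the genes. Of 16289 tested genes, 9734 (59.8%) had an adjusted p under 0.05 in edgeR's quasi-likelihood test with rat as a block. NAc core was higher for 4955 of them (30.4% of tested genes) and VTA for 4779 (29.3%). Without the VTA library of rat 2 the count was 10118 (62.1%), with 5151 higher in NAc core and 4967 higher in VTA. Of the 9734 calls, 9433 were also made without that library, and 0 of these 9433 turned direction. The median log2 fold change over all tested genes was -0.00276. Both scalings used here centre the fold changes near 0, so a near balance of directions is largely set by the scaling and is not a result. With median-ratio size factors in place of TMM, 4775 genes were higher in NAc core and 4947 higher in VTA, so which region had more calls depended on the scaling.

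Most of the called differences were small. Changes under 2-fold made up 71.5% of the called genes, and 4636 of the 9734 were under 1.5-fold. Among these smallest changes NAc core was higher more often, at 2669 genes against 1967. Between 1.5-fold and 4-fold VTA was higher more often, at 1297 against 1029 genes from 1.5-fold to 2-fold and at 1125 against 808 genes from 2-fold to 4-fold. Larger changes were few. From 4-fold to 16-fold, NAc core was higher for 369 genes and VTA for 289, and over 16-fold NAc core was higher for 80 genes and VTA for 101. Without the VTA library of rat 2 there were 107 genes over 16-fold in each direction. The median log2 fold change of called genes was 0.54 for those higher in NAc core and -0.70 for those higher in VTA.

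**Figure D1:**
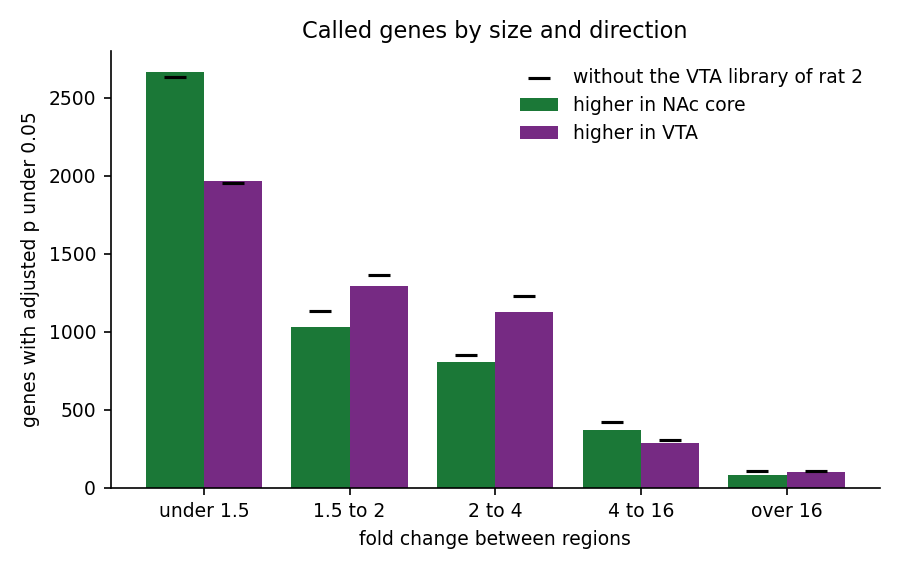
Genes with an adjusted p under 0.05 between NAc core and VTA (vertical axis, number of genes) by the size of the fold change (horizontal axis), with green bars for genes higher in NAc core and purple bars for genes higher in VTA. Black dashes give the same counts without the VTA library of rat 2, and the bars fall from 2669 and 1967 genes under 1.5-fold to 80 and 101 genes over 16-fold.

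A test against a minimum change separated the large differences. With the null set at 2-fold (edgeR's glmTreat), 1294 genes (7.94%) had an adjusted p under 0.05, 678 higher in NAc core (4.16%) and 616 higher in VTA (3.78%). Their median change was 4.55-fold in favour of NAc core and 4.09-fold in favour of VTA. All 8 rats showed the same direction for 649 of the 678 and for 582 of the 616, counts that the choice of these genes favours. Without the VTA library of rat 2, 1538 genes passed, 822 higher in NAc core and 716 higher in VTA.

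The 1294 genes took different parts of the messenger RNA pool in each region. The 678 genes higher in NAc core made up 8.29% to 10.0% of all counts in the NAc core libraries. They made up 1.86% to 2.43% in 7 VTA libraries and 4.73% in that of rat 2. The 616 genes higher in VTA made up 6.07% to 8.34% of counts in 7 VTA libraries, 4.57% in that of rat 2, and 1.84% to 2.69% in the NAc core libraries. These shares describe the same libraries that chose the genes.

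**Figure D2:**
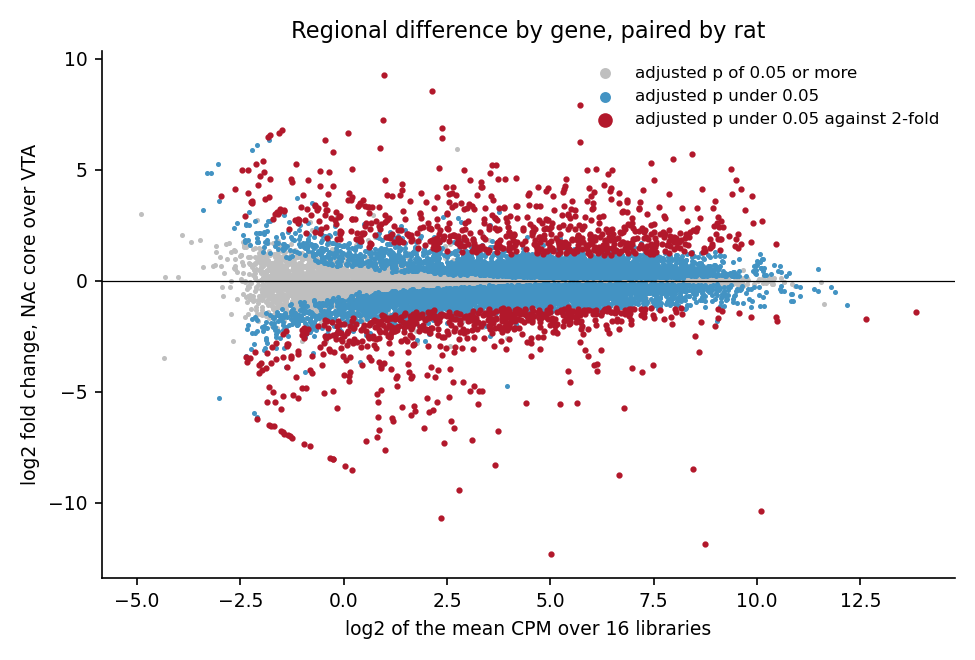
Log2 fold change of NAc core over VTA (vertical axis) against the log2 mean level in CPM (counts scaled to a common library size) over the 16 libraries (horizontal axis), with 1 point for each of 16289 genes. Grey points did not pass, blue points had an adjusted p under 0.05, and red points passed the test against 2-fold, 678 above and 616 below the line at 0.

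Separation between libraries was also counted without a model. For 2208 genes (13.6%) all 8 NAc core libraries lay above all 8 VTA libraries, and for 1820 genes (11.2%) all 8 lay below. Leaving out the VTA library of rat 2 raised these counts to 2912 (17.9%) and 2486 (15.3%). Rat by rat, NAc core was above VTA in all 8 rats for 3520 genes (21.6%) and below it in all 8 for 3221 genes (19.8%). Over the 7 rats other than rat 2 these counts were 4198 (25.8%) and 3800 (23.3%).

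All-or-none expression between the regions was rare. Only 3 of the 16289 genes held at most 3 counts in each VTA library and at least 1 CPM in each NAc core library, and 3 showed the opposite pattern. Without the VTA library of rat 2 the numbers were 7 and 8. It follows that the library held over 3 counts of 4 of the 7 genes otherwise near 0 in VTA. That library was at a median of 9.08% of the NAc core mean level for these 7 genes. It also held over 3 counts of all but 1 of the 8 genes near 0 in NAc core, at a median of 9.24% of their mean level in the other VTA libraries.

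The direction of the differences varied with the abundance of the gene. Tested genes were divided into 5 groups of equal size by their mean CPM over the 16 libraries. In the most abundant group (77.7 CPM and above) 2388 of 3258 genes were called (73.3%), 1456 higher in NAc core and 932 higher in VTA. In the next group (31.6 to 77.7 CPM) the split was 1321 against 930. The middle group was nearly even, with 1045 against 1016. In the 2 least abundant groups VTA was higher more often, with 1157 genes against 648 between 2.53 and 11.99 CPM, and 744 against 485 below that. The same order was seen with median-ratio size factors, with 1404 against 967 in the most abundant group and 474 against 768 in the least abundant, and without the VTA library of rat 2 (1480 against 964, and 515 against 758). Only the middle group changed its sign, with 1011 genes higher in NAc core and 1060 higher in VTA under median-ratio size factors. Beyond 2-fold, 191 of the most abundant genes were higher in NAc core and 70 higher in VTA.

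The median standard error of the log2 fold change fell from 0.389 in the least abundant group to 0.0684 in the most abundant, and the share called rose from 37.7% to 73.3%. The median size of a called change fell from 1.55 to 0.47 on the log2 scale. For the 6555 genes not called, 662 had an unadjusted p under 0.05, and the 95% interval of the fold change lay within 2-fold either way for 73.6% and within 1.5-fold for 56.6%.

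A few transcripts took a larger share of the VTA libraries. The 10 most abundant genes of a library held 6.59% ± 1.07 of its counts in VTA and 3.29% ± 0.188 in NAc core (SD, n = 8 rats each), and VTA was higher in 8 of 8 rats (exact permutation test, adjusted p = 0.0156 over 4 library measures). For the 100 most abundant genes the shares were 18.2% ± 1.32 and 14.7% ± 0.306 (SD, n = 8), with the same direction in 8 of 8 rats (exact permutation adjusted p = 0.0156). The VTA library of rat 2 had the lowest VTA value of both, 4.60% and 15.9%, still above every NAc core library. Genes at 1 CPM or more numbered 14328 ± 127 in VTA and 14167 ± 63.5 in NAc core (SD, n = 8), higher in VTA in 6 of 8 rats (exact permutation adjusted p = 0.0313). Without rat 2 this difference in gene number no longer passed (higher in VTA in 5 of 7 rats, exact permutation adjusted p = 0.0625), and both shares were higher in VTA in 7 of 7 rats (exact permutation adjusted p = 0.0208, where the smallest possible unadjusted p is 0.0156).

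The leading genes were those with the largest fold change among 5337 genes that passed the threshold, moved the same way in all 8 rats and had at least 10 CPM in the higher region. The rule used this contrast, so their values are a description. Adjusted p-values are those of edgeR's test over all genes.

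ENSRNOG00000012283 had the largest fold change of the eligible genes in favour of VTA in the paired edgeR fit, and ENSRNOG00000017302 had a larger one than it in 5 of 22 alternative fits. In NAc core it held 0 counts in 7 libraries and 1 count in rat 3. In VTA its level was 50.0 CPM in rat 1, 2.53 in rat 2, 49.7 in rat 3, 86.8 in rat 4, 86.7 in rat 11, 102.5 in rat 13, 70.4 in rat 15 and 72.4 in rat 16. All VTA libraries lay above all NAc core libraries, and that of rat 2 was by far the lowest of the 8. The VTA mean was 65.1 ± 31.2 CPM (SD, n = 8), or 74.1 ± 19.7 CPM without rat 2 (n = 7). The summed counts were 11436 in VTA and 1 in NAc core, and their ratio after division by the summed TMM-normalized library totals was 9950 with a 95% exact (Clopper-Pearson) interval of 1786 to 393000, which covers counting error only. The adjusted p was 2.67e-10.

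ENSRNOG00000017302 was more abundant and showed the same pattern. Its VTA counts were 15818 in rat 1, 376 in rat 2, 14249 in rat 3, 23488 in rat 4, 27403 in rat 11, 26792 in rat 13, 22369 in rat 15 and 20185 in rat 16. The NAc core libraries held between 0 and 11 counts. The levels were 858.0 ± 400.6 CPM in VTA and 0.218 ± 0.204 CPM in NAc core (SD, n = 8), a log2 fold change of -11.87 ± 0.27 (SE, adjusted p = 8.47e-10). Here too rat 2 stood apart in VTA, at 20.7 CPM where the other VTA libraries had 672.6 to 1300 CPM, but it was above each NAc core library. Without rat 2 the VTA mean was 977.6 ± 231.6 CPM (SD, n = 7).

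ENSRNOG00000004075 was a gene of moderate level in NAc core and close to 0 in VTA. Its NAc core values were 15.4 CPM in rat 1, 8.98 in rat 2, 8.63 in rat 3, 9.94 in rat 4, 6.94 in rat 11, 10.9 in rat 13, 11.7 in rat 15 and 9.44 in rat 16. The VTA library of rat 2 held 17 counts (0.935 CPM), those of rats 3 and 16 held 1 count each, and the other 5 held 0. The groups did not overlap, and rat 2 was the highest VTA library. The mean was 10.2 ± 2.55 CPM in NAc core and 0.129 ± 0.326 CPM in VTA (SD, n = 8), with a log2 fold change of 6.88 ± 0.70 (SE, adjusted p = 1.04e-05). Without the VTA library of rat 2 the fitted log2 fold change was 9.08, which depends on the prior count because so few VTA counts remain.

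ENSRNOG00000046177 had the largest fitted fold change of the eligible genes in favour of NAc core in the paired edgeR fit, a rank over ENSRNOG00000004075 that it did not hold in the unpaired fit (log2 fold change 3.65 against 6.41). In NAc core it had 133.5 CPM in rat 1, 98.1 in rat 2, 7.73 in rat 3, 113.1 in rat 4, 103.7 in rat 11, 58.0 in rat 13, 90.3 in rat 15 and 169.3 in rat 16. In VTA 7 libraries held 0 counts and that of rat 2 held 1157 counts (63.6 CPM). The groups overlapped, because the VTA value of rat 2 exceeded the NAc core values of rats 3 and 13, although NAc core was the higher region in each rat. The mean was 96.7 ± 48.4 CPM in NAc core and 7.95 ± 22.5 CPM in VTA (SD, n = 8), where the VTA mean comes from the library of rat 2 alone, and the summed counts were 14562 and 1157, with a ratio of 14.5 after the same division by normalized totals (95% exact interval 13.6 to 15.4, counting error only). The paired fit gave a far larger log2 fold change, 7.91 ± 1.24 (SE, adjusted p = 0.000238), with 7 of the 8 VTA libraries at 0. The adjusted p was 0.0585 in DESeq2 without the block. Without rat 2, NAc core was at least 705-fold higher (7 rats, against 3 counts per VTA library).

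**Figure D3:**
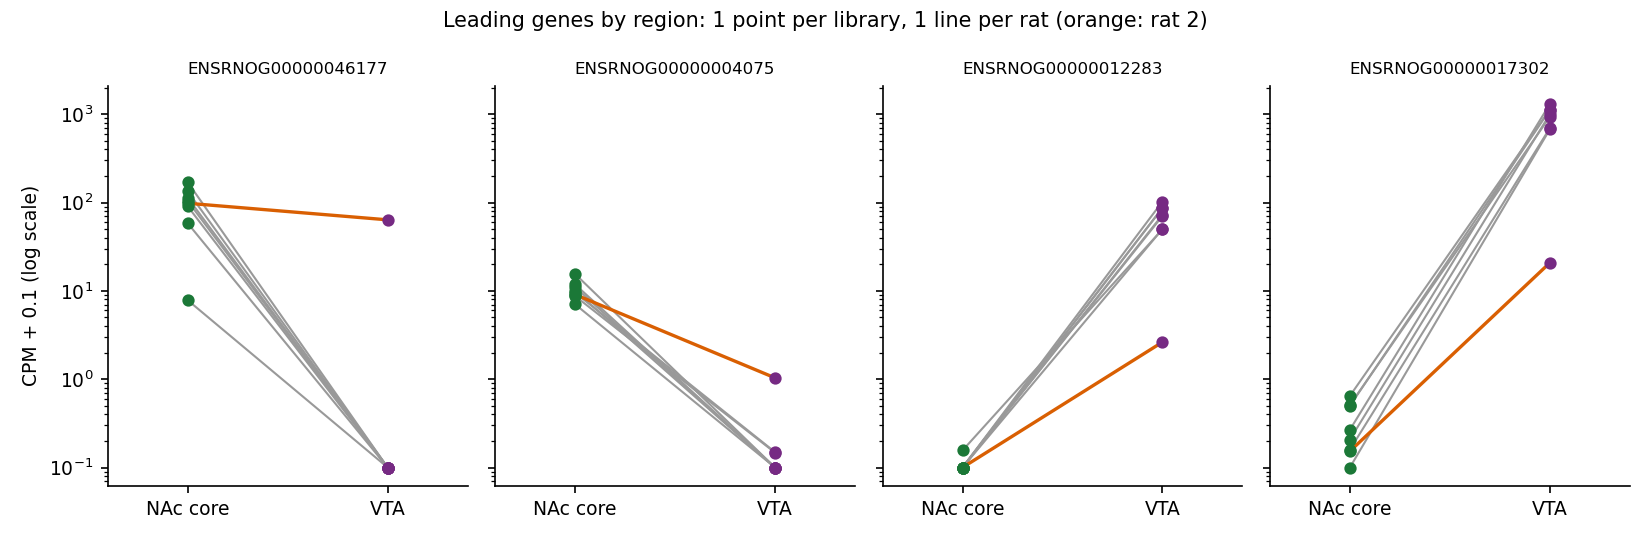
Level of the 4 leading genes in CPM plus 0.1 on a log axis, with 1 point per library in NAc core (green) and VTA (purple) and 1 line per rat. The orange line is rat 2, whose VTA value is the nearest to NAc core for each gene, for example 20.7 CPM of ENSRNOG00000017302 where the other VTA libraries had 672.6 CPM or more.

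The NAc shell of the same rats was set beside these genes for context, since it shares the VTA libraries as its reference. ENSRNOG00000012283 held 0 to 4 counts in the 8 NAc shell libraries and ENSRNOG00000017302 held 3 to 16. ENSRNOG00000004075 lay between 2.83 and 5.30 CPM in NAc shell, below all NAc core libraries and above all VTA libraries. ENSRNOG00000046177 ranged from 9.78 to 197.2 CPM. Of the 678 genes higher in NAc core beyond 2-fold, all NAc shell libraries lay above all VTA libraries for 476 (70.2%), and all NAc core libraries did for 579 (85.4%). Over all 16289 tested genes the corresponding shares were 12.6% for NAc shell and 12.9% for NAc core, with the scaling over 24 libraries. Without the VTA library of rat 2 the counts were 587 and 646, and the shares over all tested genes 17.3% and 17.1%. Of the 616 higher in VTA, the NAc shell libraries were all below for 424 (68.8%) and the NAc core libraries for 500 (81.2%), beside 11.7% and 11.6% of all tested genes. Without that library they were 504 and 545, beside 15.8% and 15.9% of all tested genes. The genes were chosen on NAc core, which favours the NAc core counts.

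Differences were then read in a rat that had no part in choosing the genes. Each rat was left out in turn, genes past the test against 2-fold were taken from the other 7, and the log2 difference of these genes was read in the rat left out. In rats other than rat 2, between 590 and 647 genes were higher in NAc core and their median difference was 2.01 to 2.36, with 96.6% to 99.7% of them in the same direction. Genes higher in VTA numbered 508 to 593, with medians from -2.10 to -1.57 and 95.4% to 99.8% in the same direction. Rat 2 kept the direction of most genes but not the size. Of 818 genes higher in NAc core in the other rats, 90.5% were higher in it, with a median of 1.00 against 2.02 in the others. Of 716 genes higher in VTA, 93.6% were, with a median of -1.17 against -1.88.

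The smaller difference in rat 2 was found in each of the 3 classes of change examined, all of 2-fold or more. Genes over 16-fold in the other rats were at a median of 4.42-fold (higher in NAc core) and 4.88-fold (higher in VTA) in rat 2. The corresponding medians in each of the remaining rats, when left out, were 13.9-fold to 19.9-fold and 11.8-fold to 20.4-fold. Genes of 2-fold to 4-fold were at 1.56-fold and 1.70-fold in rat 2, and at 2.32-fold to 2.79-fold and 2.08-fold to 2.75-fold in the remaining rats. Next to rat 2, rat 11 had the smallest differences for genes higher in VTA, with a median of 11.8-fold for those over 16-fold.

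**Figure D4:**
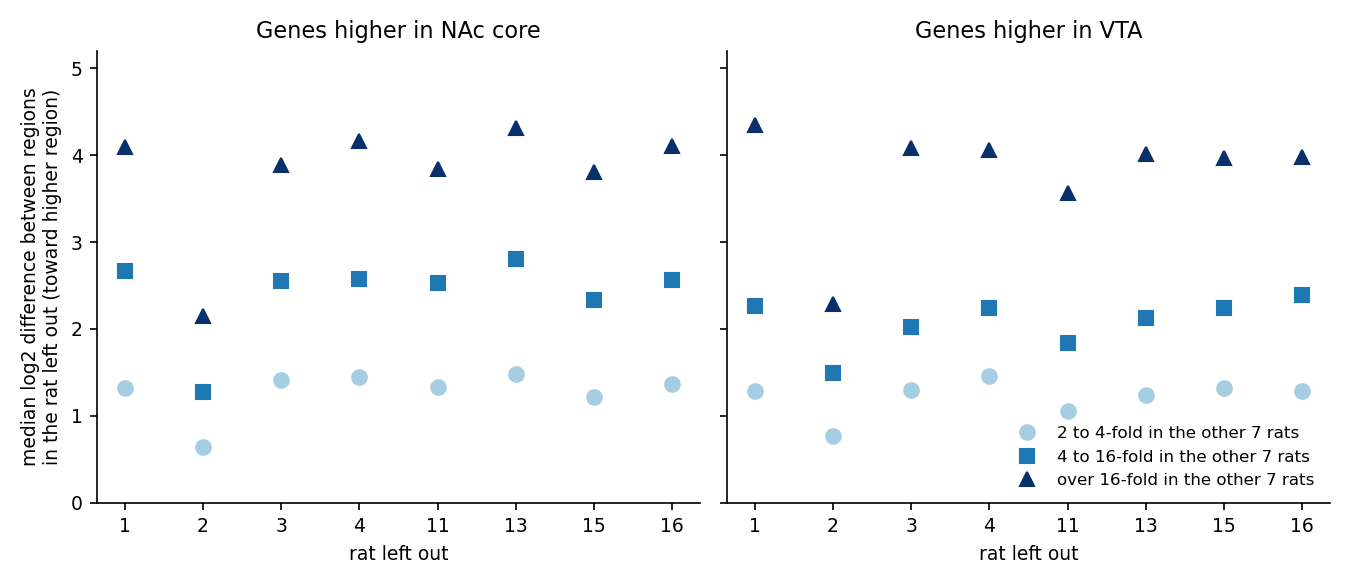
Median log2 difference between the regions in each rat left out (horizontal axis), for genes called in the other 7 rats and grouped by their fold change there, with genes higher in NAc core on the left and genes higher in VTA on the right. Each symbol is the median of 75 to 1229 genes, and rat 2 lies lowest in all 6 series, at 2.15 and -2.29 (drawn as a size) for genes over 16-fold.

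The spread between rats was larger in VTA than in NAc core for most genes, and the gap was smaller without rat 2. The median SD of log2 CPM over the 8 rats was 0.248 in VTA and 0.190 in NAc core, and the SD was larger in VTA for 66.4% of genes. Without rat 2 the medians were 0.207 and 0.193, and VTA had the larger SD for 54.6% of genes.

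The regional difference was measured in both subgroups and under both injections. In subgroup B alone (4 rats) 9318 genes were called and in subgroup A alone (4 rats, rat 2 included) 4458. In saline-injected rats alone 8075 genes were called and in nicotine-injected rats alone, again with rat 2, 4920. Without rat 2, the 3 remaining rats of subgroup A gave 5202 calls and the 3 nicotine-injected rats 5694. None of the genes called both in one of these subsets and over all 8 rats turned direction. A count of calls is not a test of a difference, so the difference itself was tested. For the interaction of region with subgroup, 0 genes (0%) passed in edgeR's paired fit (smallest adjusted p = 0.478), with 1511 genes at an unadjusted p under 0.05, and DESeq2 called 9. For the interaction of region with injection, 0 genes (0%) passed (smallest adjusted p = 1), with 293 at an unadjusted p under 0.05, and DESeq2 called 2. Of the 16289 tested genes, the unadjusted counts were 9.28% for subgroup and 1.8% for injection. With no interaction, that threshold alone would give a share of about 0.05. Genes are not independent, so these shares are not a test. The unadjusted counts moved with single rats. For subgroup the count was 2285 (14%) without rat 11, 1505 (9.24%) without rat 2, 925 (5.68%) without rat 3 and 897 (5.51%) without rat 13. For injection it was 487 (2.99%) without rat 2, 482 (2.96%) without rat 3 and 489 (3%) without the VTA library of rat 2 alone. It was lower, at 231 (1.42%), 225 (1.38%) and 218 (1.34%), without rats 11, 13 and 16.

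Preparation batch did not separate the regions in most rats. Both libraries of rats 1 (batch E), 3 and 4 (batch F), and 11, 13 and 15 (batch G) shared a batch. The VTA libraries of rats 2 and 16 were prepared in batch L and their NAc core libraries in batches E and G. In the 6 rats with both libraries in 1 batch, 9333 genes were called, 4653 higher in NAc core and 4680 higher in VTA, and 1391 passed the test against 2-fold. The VTA library of rat 16, also of batch L, scored -37.8 on the first component, within the range of the VTA libraries other than that of rat 2. Rats 2 and 16 also differ in subgroup and injection. Whether batch has a part in the score of the VTA library of rat 2 was not tested. Batches E and F held nicotine-injected rats and batch G saline-injected rats. Batch L contained 1 VTA library from either injection. In the interaction, batch and injection thus cannot be told apart.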

How the data were processed

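Messenger RNA was measured in NAc core and VTA of 8 rats. Per the labels and the study's methods, the authors trimmed reads with fastp 0.20.0, quantified them with salmon 0.12.0 against Rnor version 6 and summed transcripts to genes with tximport. The deposited values are estimated counts, rounded by the authors to whole numbers, not normalized and used as they stand. Salmon divides ambiguous reads, so near-identical genes can exchange counts.

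The filter kept 16289 of 17323 genes (99.98% of counts), those whose median-ratio normalized count exceeded 10 in 3 or more of 24 libraries. The test was edgeR 4.0.16 (R 4.3.3), quasi-likelihood, TMM, with rat as a block, because each rat gave both libraries, and with Benjamini-Hochberg adjustment over all tested genes. All tests were two-sided. CPM are scaled to TMM-normalized totals, and log2 CPM used a prior count of 2. The SE is the fold change divided by the square root of F. Exact permutation tests (SciPy 1.17.1) flipped signs over rats. The shell values were scaled over all 24 libraries.

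Same-rat libraries had correlated deviations from the region means of -0.0661 to 0.207, over 0.1 in 1 of 8 rats, so the pairing rests on the shared animal. In 56 within-region pairs chi-square per degree of freedom ranged from 5.51 to 140, so no library copied another of its region. 0 columns lacked a sample. The tests were checked on simulated counts. The members, gene rules and tests were chosen with earlier results of these data known. Leading genes were to be the largest changes each way, named by ID and limited to 2 each way without symbols. The planned gene lists, cell type markers and promoter motifs need symbols and were not used here, and no authors' comparison columns were in the table. Alternatives were DESeq2 1.42.0, no block, median-ratio factors, other filters, subsets of rats and each rat left out.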

Additional observations from a re-analysis of the deposited data

Results flagged for a closer look

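Groups of 8 libraries or rats were searched for 1 value far from the rest, by the gap to its neighbour relative to the range (Dixon's test at the 95% level). Of 22 such comparisons 6 had one. Chance would give about 1.1 in 22 independent groups, but these were not independent, 4 of the 6 concerned a rat already known to stand apart, and in 2 of the 6 the other 7 values were all 0, so the 6 cannot be read against that rate.

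Rat 2 had 4 of the 6. Its VTA library scored -8.15 on the first principal component, where the remaining VTA libraries scored -45.1 to -36.1. It held 63.6 CPM of ENSRNOG00000046177, at 0 in the other 7, and 0.935 CPM of ENSRNOG00000004075, which was at most 0.0494 CPM in the others. The median log2 difference in rat 2 of genes higher in NAc core in the other rats was 1.00, and the other rats, when left out, had 2.01 to 2.36. The second component was searched too and gave no flag. There the VTA library of rat 2 scored -44.4 and that of rat 1, the other nicotine-injected rat of subgroup A, scored -17.3. The other 6 VTA libraries scored 3.52 to 11.5.

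The remaining 2 were in NAc core. The 10 most abundant genes held 3.70% of counts in rat 11, and 3.13% to 3.35% in the others. ENSRNOG00000012283 was at 0.0560 CPM in rat 3, which is 1 count, with 0 in the others. The causes were not tested.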

How the results depend on the processing

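The count of genes differing between NAc core and VTA stayed within 1.5 times of 9734 under both DESeq2 fits (9902 with the block), median-ratio size factors (9722), no filter (9801), filterByExpr (9478), the 6 rats of matched batch, and subgroup B or saline-injected rats alone. Without the replicate block it was 10072, with 5008 higher in NAc core and 5064 higher in VTA. Leaving out 1 rat gave 8854 to 10115 genes (4503 to 5144 higher in NAc core, 4315 to 4971 higher in VTA), and 1102 to 1534 beyond 2-fold.

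Subsets with rat 2 in a group of 4, or 3 rats, gave fewer calls. Subgroup A alone gave 4458 (2205 higher in NAc core, 2253 in VTA, 367 beyond 2-fold) and nicotine-injected rats alone 4920 (2481, 2439 and 352). Without rat 2, added after seeing the data, they gave 5202 (2451, 2751 and 728) and 5694 (3074, 2620 and 676). Subgroup B alone and saline-injected rats alone, also 4 rats each, gave 9318 and 8075 calls. The part of the number of rats in these counts was not tested.

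The interaction with subgroup gave 9 genes in DESeq2 and 0 to 1 when 1 rat was left out (1 without rat 15, 0 otherwise), and that with injection gave 2 in DESeq2 and 0 to 0. The cause was not tested. Without the replicate block both gave 0 in edgeR. The difference in total counts was -2725750 to -1857353 when 1 rat was left out, with exact permutation p from 0.0156 to 0.0469; these fits, and the unpaired test, were added later. The difference in genes at 1 CPM did not pass without rat 2 (exact permutation adjusted p = 0.0625, added later). The genes near 0 in 1 region rose from 3 and 3 to 7 and 8 without the VTA library of rat 2.

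Of the 4 genes named, ENSRNOG00000046177 alone lost its call, in DESeq2 without the block (adjusted p = 0.0585) and in nicotine-injected rats alone (edgeR adjusted p = 0.0652); over 22 alternatives its log2 fold change ranged from 3.65 to 14.2. No gene called both in the main comparison and in an alternative run of it reversed direction. The median standard error was 0.389 in the least abundant group of genes and 0.0684 in the most abundant, and the part of depth in this was not tested. Intervals of the depth-scaled count ratios cover counting error only, and those of the genes not called include the spread between rats.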
